A study of Mus musculus with 18 samples.

Results

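The comparison described here is the early response of mouse embryonic stem cells (ESCs) to LY294002, at day 2 of treatment. Its members are 6 of the 18 arrays of the series, taken by their labels: 1 LY294002 day 2 sample and 1 untreated sample of each of 3 lines. The tested samples were male 129SV EBRTcH3 ESCs overexpressing wild-type c-Myc, ESCs overexpressing c-Myc T58A, and parental EBRTcH3 ESCs, each kept in LIF and serum with LY294002 for 2 days. The references were the untreated samples of the same 3 lines in the same medium. All 3 lines derive from EBRTcH3, and the labels give neither the dose nor the promoter of the c-Myc cDNA, nor whether samples came from separate cultures or clones. One label disagrees: the untreated T58A sample is described as serving N-Myc overexpressing samples, and the line is named here by its titles. Below, values of the 3 lines always stand in the order wild-type c-Myc, T58A, parental.

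PI3K turns growth factor signals into membrane lipids that recruit and activate the kinase Akt. Akt restrains the FOXO transcription factors and GSK3 and activates mTOR, which drives protein and lipid synthesis. LY294002 blocks the catalytic site of PI3K and also inhibits mTOR. c-Myc is a transcription factor whose threonine at the mutated site is phosphorylated by GSK3, a mark for its degradation, and T58A c-Myc is more stable. In ESCs, PI3K signalling is known to help keep cells undifferentiated, beside LIF.

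Levels are log2 values from RMA, a method that summarises the probes of each gene on the array, and a change is a difference of 2 log2 levels, so 1 is 2-fold. The 6 arrays had medians of 5.31 to 5.36 at day 2 and 5.35 to 5.37 untreated. Control probe sets for the 3′ against the 5′ end of Gapdh differed by 0.14 to 0.192 at day 2 and 0.141 to 0.153 untreated, and those of Actb by 0.752 to 0.824 at day 2 and 0.8 to 0.884 untreated. The core pluripotency genes lay well above the array medians at both times. Their mean level over 6 genes was 11.86, 11.76 and 11.85 at day 2, against 11.64, 11.53 and 11.74 untreated.

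Myc itself read 9.50, 8.37 and 9.19 at day 2, against 7.51, 6.99 and 7.43 untreated. Every day 2 sample lay above every untreated one, and untreated parental ESCs read between the untreated c-Myc lines. An untreated parental sample of another array set, which appears to have been normalized separately, read 9.30, above 2 of the 3 day 2 samples. The rise was 1.71 ± 0.13 (SE, n = 3 lines; limma adjusted p = 0.00277). Mycn, the gene for N-Myc and the more abundant Myc gene of ESCs, read 11.83, 11.60 and 12.38 at day 2, against 10.07, 9.33 and 11.33 untreated, a rise of 1.70 ± 0.22 (adjusted p = 0.00705). As the mean of all its probe sets, dim ones included, the change of Mycn was 0.99. Whether the Myc probe set covers the introduced cDNA is not stated, so these levels do not check the overexpression. Max, the partner of both, had a change of 0.19 ± 0.12 (adjusted p = 0.317), and Pik3ca, the gene for the catalytic PI3K subunit p110 alpha, one of -0.26 ± 0.12 (adjusted p = 0.179). Of the 13 genes of the Myc and Max network, those that fell were Mga, which binds Max (-0.64), and Mxd1, a competitor of Myc for Max (-0.52). Another Mxd1 probe set had a mean change of 0.21 in the opposite direction in all lines, and the mean of its probe sets, -0.07, did not pass.

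Across the 13198 genes tested, 1814 were higher at day 2 (13.7% of genes tested) and 1232 were lower (9.33%), by limma with line as a block and adjusted p under 0.05. A single direction in all 3 lines, which a paired test of 3 lines nearly requires, held for all 3046 and for 7662 of all genes tested (58.1%). At least 2-fold changes were found for 207 of the higher and 214 of the lower genes. The day 2 and untreated samples did not overlap in 4948 of the genes tested (37.5%), among them 2704 of the 3046 that changed. The median change over all genes tested was 0.04. In RNA from whole cultures, fewer cells of a type and less RNA per cell cannot be told apart. Scaling altered the balance: the split was 1476 higher and 1594 lower when each array was centred on its median, and 1650 higher and 1559 lower after quantile normalization. Leaving out the wild-type c-Myc pair left 1014 genes, 602 higher and 412 lower.

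Hs6st2, which adds sulfate to heparan sulfate chains at the cell surface, had the largest rise. It read 7.89, 8.22 and 8.82 at day 2, against 4.55, 4.96 and 5.57 untreated. The groups were far apart and the 3 lines moved almost alike, by 3.34, 3.26 and 3.25, which gave a 9.71-fold rise (3.28 ± 0.08, adjusted p = 0.000347). The size rests on 1 of its 4 probe sets: the other one above the level filter had a mean change of 1.70, and the mean of all 4 was 1.38. Pim2, a survival kinase that acts on many substrates of Akt, read 9.22, 8.47 and 11.00 at day 2, against 6.87, 6.58 and 7.47 untreated (6.04-fold, adjusted p = 0.00522). Its highest level was in the treated parental line. Dppa3, which protects DNA methylation in the early embryo, read 7.69, 7.78 and 8.14 at day 2, against 5.61, 5.13 and 5.15 untreated, a rise of 2.57 ± 0.17. The other 12 of the 15 largest rises lay between 1.82 and 2.54. They were Lef1, a Wnt effector, Bnip3, a mitophagy receptor, Gadd45g, a stress and growth arrest gene, Pou3f1, a POU factor of the epiblast, Prkar2b, a regulatory subunit of protein kinase A, Atp10a, a phospholipid flippase, Gbx2, a homeobox factor, Pfkl, a phosphofructokinase, and Fndc3c1, Zc3h6, Pm20d2 and Limd2. As the mean of all probe sets Lef1 was 1.77, Pou3f1 1.68, Atp10a 1.10, Pfkl 1.07 and Limd2 0.98. Fndc3c1, Zc3h6 and Pm20d2 lay below the level filter of 4.64 in every untreated sample. They entered the test through their day 2 levels, so the size of their rises is uncertain.

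Hhip, an inhibitor that binds Hedgehog ligands, had the largest fall. It read 4.45, 5.33 and 4.82 at day 2, against 7.67, 7.29 and 9.22 untreated, so that all treated samples lay below all untreated ones (9.17-fold lower, -3.20 ± 0.42, adjusted p = 0.00711). Trpm1, a cation channel of melanocytes and retina, read 5.85, 6.05 and 5.60 at day 2, against 9.32, 9.69 and 7.96 untreated (-3.15 ± 0.25). Its other probe set above the level filter had a mean change of -0.05, and the mean of all its probe sets was -0.91. Napsa, a lysosomal aspartic protease, read 6.81, 6.90 and 6.94 at day 2, against 9.93, 9.43 and 10.54 untreated (-3.08 ± 0.20). Its treated levels were nearly equal although the untreated ones differed by over 1. The other 12 of the 15 largest falls lay between -3.03 and -2.19 and included Aqp3, a water and glycerol channel (-2.52), Scara5, a ferritin receptor (-2.46), Dpys, an enzyme of pyrimidine breakdown (-2.26), and Pmel, a melanosome protein (-2.23). Serpinb6c, Niban1, Cdc14a, B4galnt2, Ripply3, Zmat4, Nupr1 and Ak7 made up the rest. As the mean of all probe sets Scara5 was -1.21, Cdc14a -1.02, B4galnt2 -0.998, Zmat4 -0.97 and Dpys -0.77.

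**Figure D1:**
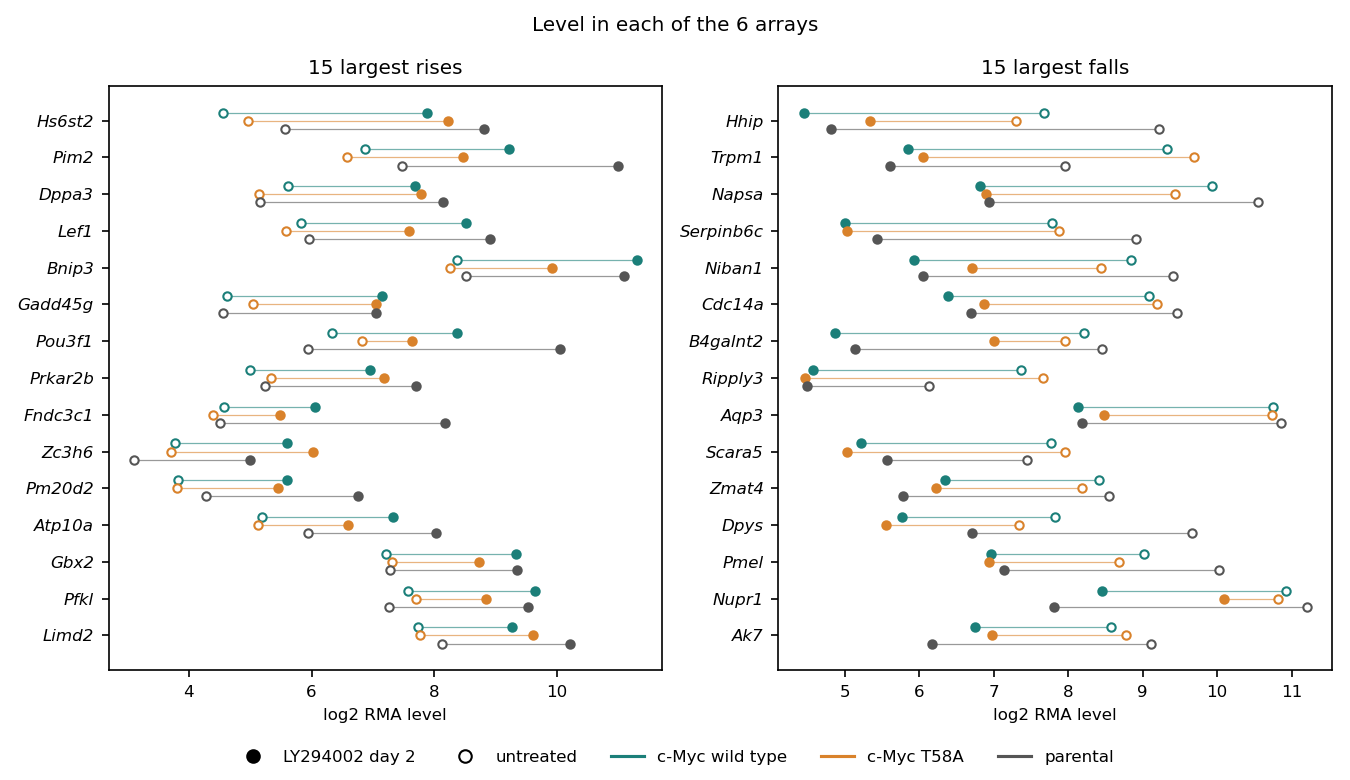
Levels of the 15 genes with the largest rises (left) and the 15 with the largest falls (right) in each array, on the log2 RMA scale. Filled points are LY294002 day 2, open points untreated, and a line joins the samples of 1 cell line. Hs6st2 moved by 3.25 to 3.34 in every line, while Pou3f1 and Nupr1 moved by different amounts.

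Parts of the pathway that LY294002 blocks passed at about the rate of all genes. Of 30 tested PI3K and Akt components, 3 rose, 3 fell and 24 did not pass, with a median change of -0.01, beside 13.7% higher and 9.33% lower over all genes tested. Tcl1, a coactivator of Akt that is abundant in ESCs, read 9.78, 10.06 and 9.15 at day 2, against 11.30, 11.26 and 11.02 untreated (-1.53 ± 0.14, adjusted p = 0.00342). Inpp5d, a phosphatase that removes a phosphate from the lipid product of PI3K, fell by 1.66 ± 0.31, and Tsc1, an inhibitor of mTOR, fell by 0.80 ± 0.08. Another Tsc1 probe set above the level filter had a mean change of 0.39 in the opposite direction in all lines. Rising members were Eras, an ESC-specific Ras protein that activates PI3K (0.65), Phlpp2, a phosphatase of Akt (0.54), and Pik3r1, the regulatory subunit p85 alpha (0.45). None of the 4 catalytic subunits tested passed. The mean of all probe sets was -1.06 for Inpp5d and -0.43 for Tsc1. With the wild-type c-Myc pair left out 0 rose and 3 fell, and with the T58A pair left out 1 rose and 3 fell.

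FOXO factors, their targets and receptors under PI3K feedback rose more often than they fell. Of 33 tested, 10 rose and 3 fell, with a median of 0.20, beside 0.04 over all genes tested. Among the factors, Foxo4 rose by 0.66 ± 0.10 (0.37 as the mean of its probe sets, which did not pass) and Foxo1 by 0.45 ± 0.09. Targets that rose were Gadd45g, Pdk4, an inhibitor of pyruvate dehydrogenase (1.23 ± 0.09), the sestrins Sesn3 (0.67) and Sesn1 (0.61), which respond to stress and restrain mTOR, and Fbxo32, an atrophy ubiquitin ligase (0.68). Pdk4 read 6.82, 6.63 and 6.83 at day 2, against 5.71, 5.43 and 5.46 untreated, without overlap. Growth factor receptors and adaptors of the same list also rose, with Fgfr2 by 0.76, Irs2, an insulin receptor substrate, by 0.68 and the insulin receptor Insr by 0.42. Grb10, an adaptor that restrains insulin signalling, fell by 1.54 ± 0.12. The FOXO targets Sod2 and Cat, both antioxidant enzymes, fell by 0.42 and 0.46. Of the 22 FOXO targets tested, 5 rose, 2 fell and 15 did not pass, with a median of 0.13. Over all genes tested 13.7% were higher and 9.33% lower. In the fit without wild-type c-Myc 5 genes rose, and in that without T58A 6.

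Genes of the ATF4 response, which supplies amino acids when their level is low or proteins misfold, fell where they passed. Of 44 tested, 0 rose and 14 fell, and 36 had a change below 0, with a median of -0.43 beside 0.04 over all genes tested. The shares over all genes were 13.7% higher and 9.33% lower. Cth, which makes cysteine, read 10.27, 11.28 and 10.41 at day 2, against 12.29, 12.27 and 12.77 untreated (-1.79 ± 0.25, adjusted p = 0.00863). The T58A sample was the highest of the treated ones and still below every untreated sample. Nupr1, a stress-induced chromatin protein, read 8.46, 10.09 and 7.82 at day 2, against 10.92, 10.82 and 11.20 untreated (-2.19 ± 0.46, adjusted p = 0.0246). Aldh1l2, a mitochondrial folate enzyme, fell by 2.03 ± 0.33, and Atf5, a factor related to ATF4, fell by 1.90 ± 0.29. By role, 4 of 7 serine, glycine and one-carbon genes fell (Aldh1l2, Shmt2, Psph and Phgdh), 4 of 5 proline, asparagine and cysteine enzymes fell (Cth, Aldh18a1, Asns and Got1), and so did 2 of 10 tRNA synthetases (Cars and Mars1) and 4 of 14 regulators (Nupr1, Atf5, Ddit4 and Sesn2). None of the 8 amino acid transporters passed. Medians by line were -0.53 in wild-type c-Myc, -0.06 in T58A and -0.72 in parental ESCs. The count rested on which lines were used: 31 fell without the T58A pair, 3 without the wild-type c-Myc pair, and 10 fell and 2 rose without the parental pair.

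The promoters of this list held the ATF4 response element more often than promoters at large. The genes were chosen for their part in the ATF4 response, so this share describes the choice and is not a result of the treatment. The element TGATGNAA, on either strand, stood in windows from 250 bases before to 50 after the start in 13 of 36 list genes with a window (36.1%), against 2.62% of the 10644 tested genes with a window and 3.97% of all 32851 windows. Among genes that fell at least 2-fold it was in 12 of 164 (7.32%), and among those that rose at least 2-fold in 6 of 170 (3.53%). Of the 13 list genes with the element, 3 fell (Nupr1, Asns and Got1) and 10 did not pass. Shown here are the stretches around the element of those 3 and of Chac1, a glutathione-degrading enzyme whose change was 0.05 ± 0.26, to set a gene that fell beside one that did not pass. They are RefSeq promoter sequences of GRCm38.p6, 5′ to 3′ on the gene's strand, all before the transcription start, with the element in capitals.
Nupr1 (chr7:126625551-126625602, minus strand): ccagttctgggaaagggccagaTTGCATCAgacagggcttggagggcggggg
Asns (chr6:7693210-7693254, minus strand): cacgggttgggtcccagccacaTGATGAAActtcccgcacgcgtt
Got1 (chr19:43524678-43524729, minus strand): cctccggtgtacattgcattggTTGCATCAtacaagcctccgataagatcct
Chac1 (chr2:119351027-119351078, plus strand): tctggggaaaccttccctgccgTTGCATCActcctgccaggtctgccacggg
The letters TTGCATCA in Nupr1, Got1 and Chac1 are the same element read on the other strand, so a gene that did not pass carried the same letters as genes that fell. A match is a description of the letters, not evidence of binding.

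In the list of p53 targets and inhibitors of cyclin-dependent kinases (CDKs), which brake the cell cycle, most p53 pathway genes fell, 11 of 15, with 2 higher. Over all 21 tested, 13 fell and 4 rose, with a median of -0.62 beside 0.04 over all genes tested. Among all genes 9.33% fell and 13.7% rose. Plk2, a p53-induced kinase, read 7.45, 7.82 and 8.00 at day 2, against 9.78, 9.73 and 9.80 untreated (-2.02 ± 0.13, adjusted p = 0.00218). Cdkn1a, the CDK inhibitor p21, read 7.88, 8.18 and 7.68 at day 2, against 9.05, 9.19 and 9.06 untreated (-1.19 ± 0.10, adjusted p = 0.00303). In both genes the 3 untreated samples lay close together and all treated ones well below them. Plk2 was -1.02 as the mean of all its probe sets. Mdm2 and Mdm4, which restrain p53 and are its targets or partners, fell by 0.95 and 1.04, and Btg2, Ccng1, Phlda3, Perp, Trp53inp1, Zmat3, Aen and Sesn2 fell by 0.60 to 1.19. Of 6 CDK inhibitors 2 rose and 2 fell: Cdkn2a, a tumour suppressor locus, rose by 0.80 and Cdkn1c, an imprinted inhibitor, by 0.70, while Cdkn2c fell by 0.33. Rrm2b and Ei24, p53 targets in nucleotide supply and autophagy, rose by 0.48 and 0.33. In the Bcl2 family of cell death regulators, 4 of 13 rose, among them the death activators Pmaip1 (1.11 ± 0.09) and Bmf (0.86), Mcl1, which favours survival (0.43), and Bok (0.45), while Hrk (-1.21) and Bnip2 (-0.37) fell. If wild-type c-Myc was left out, 9 genes of the p53 list fell and 2 rose, and in the Bcl2 family 2 rose and 1 fell. Without the T58A pair 2 rose in each list. Bmf was 0.41, Mcl1 0.28 and Hrk -0.79 as the mean of all probe sets.

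Cell cycle genes rose at a rate near that of all genes, and none that passed fell. Of 41 replication and mitosis genes tested, 7 rose and 0 fell, beside 13.7% higher and 9.33% lower over all genes tested. The median of 0.05 was -0.003 after centring of the arrays, where 4 rose and 1 fell. The rises were in 4 of 9 cyclin and E2F genes (Ccne2 by 0.96, Ccne1 by 0.68, Ccnb2 by 0.56 and E2f1 by 0.34) and in 3 of 19 replication genes (Gins2, Rfc3 and Cdc6). Ccne2, a cyclin that drives entry into S phase, read 8.40, 8.22 and 8.28 at day 2, against 7.23, 7.24 and 7.57 untreated. None of 13 mitosis genes passed. In the absence of the wild-type c-Myc pair 2 of the 41 rose. Among 40 ribosome biogenesis and Myc target genes, 5 rose (Ldha, Odc1, Rcc1, Srm and Wdr12) and 1 fell. Rises were thus about as frequent as over all genes tested. Of these 40 genes, 0 passed without the wild-type c-Myc pair. Another Wdr12 probe set had a mean change of -0.77, opposite to its rise of 0.45.

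More glycolysis genes rose than fell. Of 36 tested glycolysis and hypoxia genes 16 rose and 5 fell, with a median of 0.38 beside 0.04 over all genes tested. The shares over all genes were 13.7% higher and 9.33% lower. Pfkl, which commits sugar to glycolysis, read 9.64, 8.85 and 9.54 at day 2, against 7.57, 7.70 and 7.27 untreated (1.83 ± 0.22, adjusted p = 0.00556). Ldha, which turns pyruvate into lactate, read 12.73, 12.30 and 12.47 at day 2, against 11.38, 11.80 and 10.77 untreated (1.18 ± 0.23, adjusted p = 0.0186). Among the 13 glycolytic enzymes 8 rose and 1 fell, with Tpi1 at 1.35, Pkm at 1.18, Pfkm at 1.10 and Pgk1 at 0.97. Of 14 hypoxia genes 3 rose and 3 fell: Bnip3 read 11.31, 9.92 and 11.10 at day 2, against 8.37, 8.26 and 8.52 untreated, while Vegfa, a vascular growth factor, fell by 0.92 and the demethylase Kdm3a by 0.47. Medians by line were 0.43 in wild-type c-Myc, 0.16 in T58A and 0.63 in parental ESCs. The untreated parental sample of the other array set read 11.54 for Bnip3, above all 3 treated samples here. In 17 of the 21 genes of this list that changed, its level was nearer to the day 2 mean than to the untreated mean of the 3 lines. The same held for 5 of 5 heat shock, 5 of 7 endoplasmic reticulum, 10 of 17 p53 list, 7 of 14 ATF4, 7 of 17 naive, 5 of 12 lysosome, 5 of 13 FOXO and 3 of 15 formative genes that changed. It held for 4 of 5 BMP, 4 of 7 cell cycle, 4 of 6 Bcl2, 4 of 6 primitive endoderm, 3 of 4 Myc network, 3 of 10 lipid, 3 of 6 heparan sulfate, 2 of 6 PI3K, 2 of 5 Hedgehog, 2 of 4 LIF, 1 of 6 ERK and 0 of 4 Wnt genes that changed. This count was not made over all genes tested, so the list counts have no share over all genes beside them. The array of the other set had a median of 5.05, against 5.35 to 5.37 in the untreated arrays here. Its levels were not rescaled, so for small changes a difference in scale cannot be told apart from one in RNA. The part of array set and culture in these changes was not tested. Without the wild-type c-Myc pair, 9 genes rose and 0 fell.

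Lipid synthesis genes that passed all rose, with 10 of 30 higher and 0 lower and a median of 0.30. The whole set of genes tested had 13.7% higher, 9.33% lower and a median of 0.04. Rises were in 6 of 8 fatty acid enzymes, such as Acaca, which makes the building block of fatty acids (0.91 ± 0.11), and the desaturases Scd1 (0.77), Fads2 (0.75) and Scd2 (0.67). Of 16 cholesterol enzymes 3 rose, namely Cyp51 (0.94 ± 0.08), Fdps (0.84) and Sqle (0.37), as did Insig1, a sterol sensor (0.63). For the cholesterol enzymes this was near the share over all genes tested. Cyp51 read 8.59, 8.65 and 8.71 at day 2, against 7.60, 7.73 and 7.77 untreated, so all 3 lines moved by nearly the same amount. Averaged over probe sets, Cyp51 was 0.61, Acaca 0.47 and Fdps 0.42. Medians by line were 0.38 in wild-type c-Myc, 0.09 in T58A and 0.42 in parental ESCs. Without the wild-type c-Myc pair 5 genes rose. Of 34 oxidative phosphorylation and TCA cycle genes, 2 rose and 3 fell (median -0.01), with Ppargc1b, a coactivator of mitochondrial genes, lowest at -0.90. Neither count exceeded the share over all genes tested.

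Lysosomal and protein folding genes that passed fell, except Tfe3. Of 29 lysosome and autophagy genes 11 fell, 1 rose and 17 did not pass (median -0.25). Among all genes tested 9.33% fell and 13.7% rose, with a median of 0.04. The falls included 7 of 13 lysosomal genes. Hexa, a lysosomal hexosaminidase, read 10.45, 10.70 and 10.82 at day 2, against 12.10, 11.94 and 12.06 untreated (-1.38 ± 0.12, adjusted p = 0.00293). Ctsd, a lysosomal protease, fell by 0.96 ± 0.09, Ctsb by 0.72, Ctsa by 0.68 and Lamp1, a membrane protein of the lysosome, by 0.46. The regulators of lysosomal genes moved apart, with Mitf (-1.23) and Tfeb (-0.85) lower and Tfe3 higher (0.82 ± 0.11). Of 17 chaperones and sensors of the endoplasmic reticulum 7 fell, 0 rose and 10 did not pass (median -0.37), led by Calr, which folds glycoproteins (-0.85), and Hspa5, the chaperone BiP (-0.45). Of 8 heat shock genes 5 fell and 0 rose (median -0.36), with Hsph1 at -0.69, Dnajb1 at -0.54, Hspb1 at -0.54, Hspa1b at -0.38 and Hsp90aa1 at -0.33 (-0.19 as the mean of its probe sets, which did not pass). Without the wild-type c-Myc pair the counts of falls were 5, 1 and 1, and without either other pair 4 for the endoplasmic reticulum and 3 for heat shock.

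The E-box CACGTG, the core of the site that Tfeb, Tfe3 and Mitf bind and also of the site of Myc with Max, stood in the windows of 9 of 25 lysosome and autophagy genes (36.0%), against 11.7% of tested genes and 7.15% of all windows. Of these 9, 3 fell and 6 did not pass. The share was similar or higher in some other lists: 42.1% for germ cell, 41.7% for Myc network, 34.6% for FOXO and 34.3% for ribosome genes. Many lists were lower, such as replication and mitosis genes with 3.03%. Among genes that fell at least 2-fold it was 9.76%, and among those that rose at least 2-fold 13.5%. The stretches of the 3 lysosome list genes that fell are shown because the factors named for this site moved in opposite directions. They follow the same conventions, with 1 E-box in capitals, and the element is its own complement on the other strand.
Ctsd (chr7:142387898-142387947, minus strand): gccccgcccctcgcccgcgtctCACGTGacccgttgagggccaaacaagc
Ctsa (chr2:164833739-164833772, plus strand): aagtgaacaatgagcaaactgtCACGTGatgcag
Lamp1 (chr8:13159078-13159127, plus strand): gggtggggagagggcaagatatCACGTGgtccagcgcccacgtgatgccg
Lamp1 held 4 copies of the E-box before its start and Ctsd 2. The FOXO motif TGTTTAC was in 4 of 26 genes of the FOXO list (15.4%), against 3.10% of tested genes.

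Most naive pluripotency genes fell and most formative ones, of the state that follows in the early epiblast, rose. Of 25 naive genes 15 fell and 2 rose (median -0.51), and among the 12 transcription factors 10 fell and 0 rose. The whole set of genes tested had 9.33% lower, 13.7% higher and a median of 0.04. Nr0b1, an orphan nuclear receptor, read 11.23, 11.17 and 10.95 at day 2, against 12.30, 11.99 and 12.27 untreated (-1.07 ± 0.12). Tbx3 fell by 1.49, Prdm14 by 1.05, Nr5a2 by 0.87, Tfcp2l1 by 0.85 and Klf5 by 0.71, whereas Esrrb, Klf2 and Zfp42 fell by 0.45 to 0.51. Both naive genes that rose, Dppa3 and Gbx2, were among the 15 largest rises. Of 23 formative genes 15 rose and 0 fell (median 0.64), and 5 further members lay below the level filter. Dnmt3a and Dnmt3b, which write DNA methylation, rose by 1.67 ± 0.10 and 1.62 ± 0.13, while Tet2, which removes it, fell by 0.56. Dnmt3b read 12.27, 11.81 and 12.56 at day 2, against 10.44, 10.56 and 10.79 untreated. Otx2, an early formative factor, rose by 0.48 ± 0.13 (adjusted p = 0.0424). Of 6 core genes 2 rose and 1 fell: Nanog fell by 0.57 ± 0.10, Lin28a rose by 0.87 and Utf1 by 0.67, and Sall4 had a change of 0.12 (adjusted p = 0.339). Leaving out wild-type c-Myc, 8 naive genes fell and 10 formative genes rose.

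Markers of primitive streak, fibroblast, trophoblast and neural cells had list means between 4.47 and 6.08. The germ cell and meiosis list lay higher. Its means were 6.81, 6.89 and 6.87 at day 2, against 6.71, 6.69 and 6.80 untreated. The 2-cell-like list lay lower, with 3.79, 3.73 and 3.77 at day 2, against 3.77, 3.74 and 3.83 untreated. Over all measured members the means were 4.56, 4.50 and 4.50 at day 2 against 4.57, 4.72 and 4.47 untreated for 11 primitive streak genes, and 5.12, 5.05 and 5.18 at day 2 against 5.06, 5.03 and 4.82 untreated for 11 fibroblast genes. They were 5.21, 5.11 and 5.46 at day 2 against 5.31, 5.42 and 5.24 untreated for 12 trophoblast genes, and 5.87, 5.91 and 5.91 at day 2 against 6.02, 5.96 and 6.08 untreated for 10 neural genes. RMA gives no level of 0, and the medians of these arrays were 5.31 to 5.37. Single markers were well above this: Vim, an intermediate filament gene of the fibroblast list, averaged 10.1 at day 2 and 10.1 untreated, and the neural genes Ncam1 and Tubb3 averaged 7.81 and 7.41 at day 2, against 8.42 and 7.73 untreated. Of 17 primitive endoderm genes 4 fell (Sparc by 1.40, Lama1 by 1.41, Sox7 by 1.26 and Amn by 0.65) and 2 rose (Lamb1 and Dab2), and without the parental pair 6 fell and 1 rose. Among all genes tested 9.33% fell and 13.7% rose. Sox1, a neural factor, fell by 1.64 ± 0.10 and Map2, a neuronal microtubule protein, rose by 1.43 ± 0.12. Another Sox1 probe set had a mean change of 0.23 in the opposite direction in all lines, and the mean of its probe sets was -0.71.

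**Figure D2:**
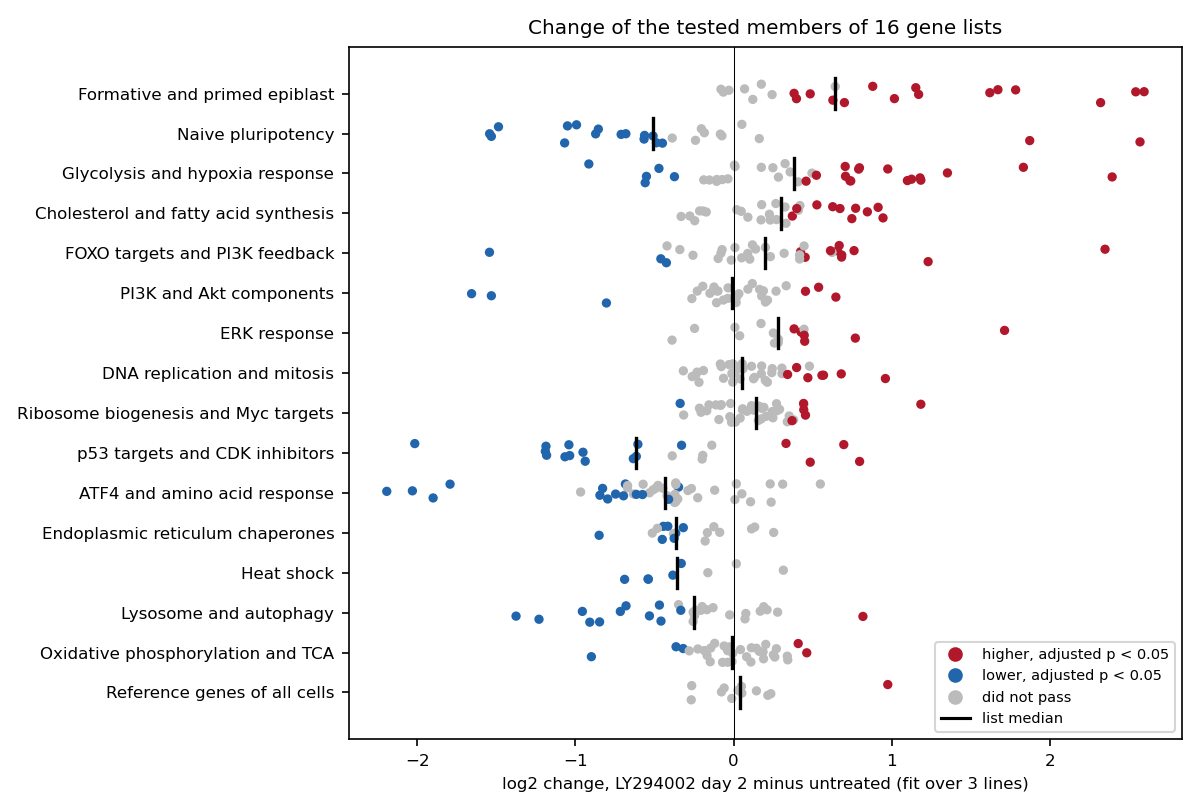
Change at day 2 for the tested members of 16 gene lists, 1 point per gene, with the fitted log2 change on the x axis and a black bar at each list median. Formative, glycolysis and lipid genes lay mostly above 0 (medians 0.64, 0.38 and 0.30), and p53, naive and ATF4 genes mostly below (medians -0.62, -0.51 and -0.43).

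Members of the ESC signalling lists that passed were as follows, beside 13.7% higher, 9.33% lower and a median of 0.04 over all genes tested. Of 16 ERK response genes 6 rose and 0 fell (median 0.28), namely Myc, Junb, an AP-1 factor (0.45), and the feedback inhibitors Spry1 (0.77), Spry2 (0.43), Spred1 (0.45) and Dusp6 (0.38). After centring of the arrays 4 rose, and without the wild-type c-Myc pair 1. Of 11 Wnt genes, Lef1, Axin2, a feedback inhibitor (0.72), and Sp5 (0.47) rose and Cdx1 (-0.88) fell. Lef1 read 8.51, 7.58 and 8.91 at day 2, against 5.83, 5.59 and 5.96 untreated. Nodal, the ligand that maintains the epiblast, fell by 0.54, its antagonist Lefty2 by 1.77 and the receptor Acvr1b by 0.40, out of 11 genes of which 0 rose. In the BMP list 4 of 11 fell, with the ligand Bmp4 at -0.65, the Id repressors Id4 at -1.04 and Id1 at -0.74 and Hes1, a repressor downstream of Notch, at -1.38, while the decoy receptor Bambi rose by 0.94 ± 0.08. In the LIF list Il6st, the shared receptor subunit gp130, rose by 0.65 and Pim1 by 0.50, and Tyk2 and Lif fell by 0.52 and 0.45. With wild-type c-Myc left out 1 Wnt gene rose, 1 Nodal gene and 3 BMP genes fell, and 0 LIF genes passed. As the mean of all probe sets Axin2 (0.35), Acvr1b (-0.15), Tyk2 (-0.33) and Lif (-0.15) did not pass.

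Of 10 Hedgehog genes 3 fell and 2 rose, beside 9.33% lower and 13.7% higher over all genes tested. Gli1, the effector that is itself a target of the pathway, read 6.84, 6.75 and 7.08 at day 2, against 8.23, 7.89 and 8.98 untreated (-1.48 ± 0.15, adjusted p = 0.0045). Like Hhip, another target, its 3 treated samples lay below all untreated ones. Gli2 fell by 0.47, and Gli3, which mostly represses targets, rose by 0.66, as did Gas1, a coreceptor, by 0.85 (0.52 as the mean of its probe sets). Of 19 heparan sulfate genes 2 rose (Hs6st2 and Gpc3, a glypican) and 4 fell (Sdc4, a syndecan, by 1.13, Glce by 0.68, Sulf2, which removes the sulfate that Hs6st2 adds, by 0.49, and Hs6st1 by 0.36). Rises in both lists were few and near the share over all genes tested. Without the wild-type c-Myc pair 1 Hedgehog gene rose and 2 fell, and 1 heparan sulfate gene rose and 1 fell.

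The size of the changes varied between lines. Over the 13198 genes the changes of wild-type c-Myc and T58A ESCs correlated at r = 0.774, those of wild-type c-Myc and parental at 0.787, and those of T58A and parental at 0.656. Each line has its own untreated sample, but genes are not independent replicates. At least 2-fold changes numbered 525 in wild-type c-Myc, 340 in T58A and 776 in parental ESCs. Of the 3046 genes that changed, T58A had the smallest change in 51.9% and parental the largest in 49.3%. Whether T58A differs from wild-type c-Myc at this time was not tested: with 1 pair each, and parental ESCs apart, no residual degree of freedom is left. Pou3f1 varied most, with changes of 2.04, 0.81 and 4.10: it read 8.38, 7.63 and 10.05 at day 2, against 6.33, 6.82 and 5.95 untreated. Its other probe set had a smaller mean change, 1.04. Nupr1, Fndc3c1, Tmem156 and Hhip followed, with ranges over the lines of 2.44 to 2.66. Genes with the smallest range among those changed at least 2-fold were Fam25c, Tek, an angiopoietin receptor, Slc12a8, Cotl1, an actin-binding protein, and Syce3, a synaptonemal complex protein. Tek read 4.81, 4.41 and 6.18 at day 2, against 6.15, 5.75 and 7.49 untreated, so its levels overlapped between the groups although every line was lower at day 2 by a similar amount (range over lines 0.04).

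**Figure D3:**
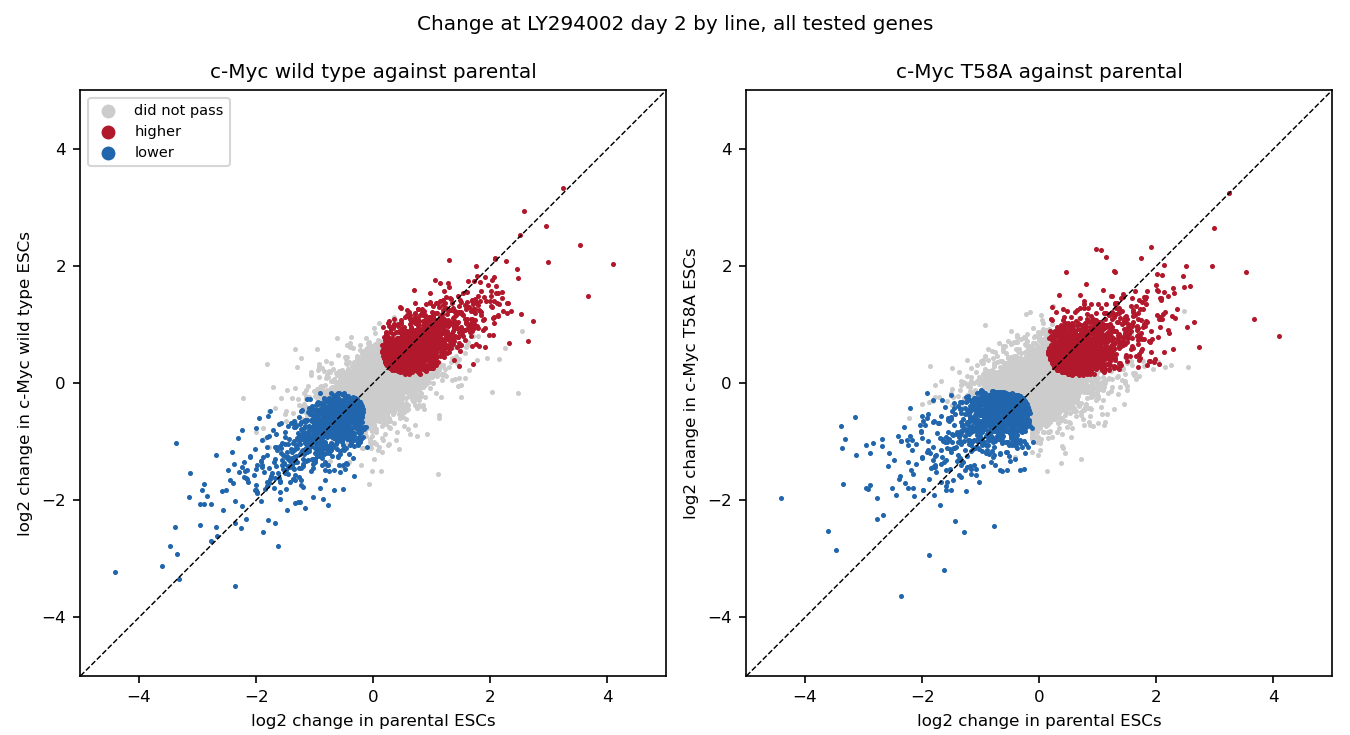
Log2 change at day 2 in wild-type c-Myc (left) and T58A (right) ESCs on the y axis against the change in parental ESCs on the x axis, for the 13198 genes tested. Red genes were higher and blue genes lower in the fit over all lines, and the dashed line marks equal changes (r = 0.787 left and 0.656 right).

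**Figure D4:**
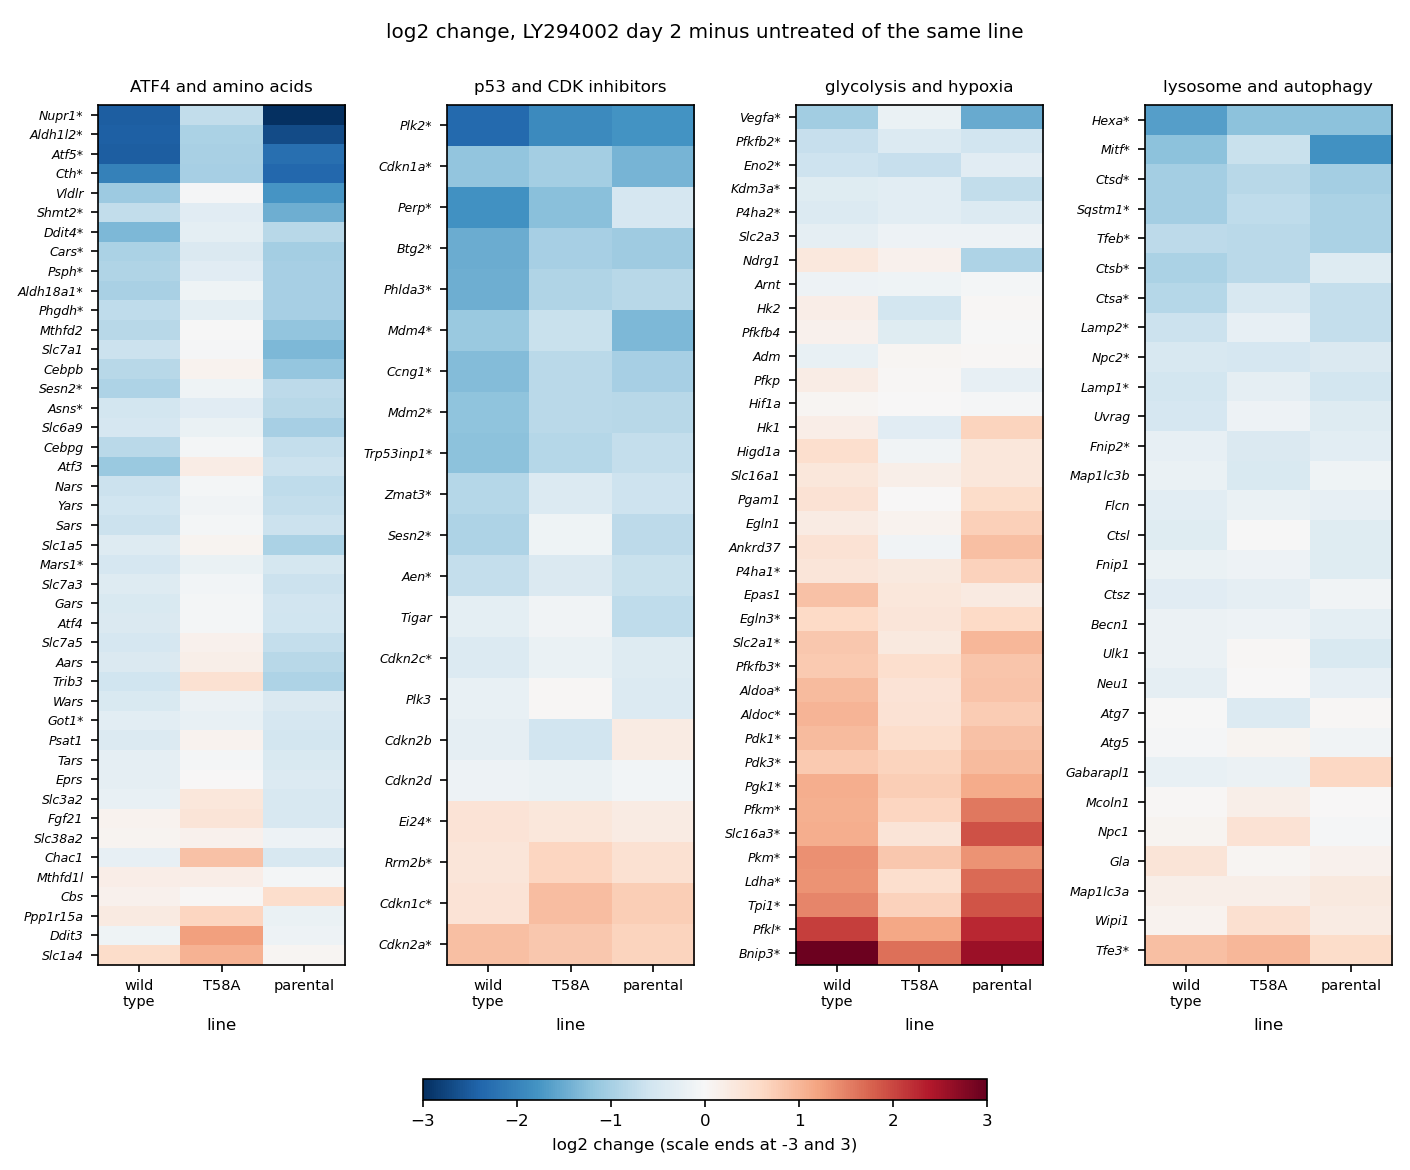
Log2 change in each line, with columns for wild-type c-Myc, T58A and parental ESCs, for the tested members of 4 lists sorted by their fitted change. Asterisks mark genes that passed, and the T58A column is paler in the ATF4 list (median -0.06) and in the glycolysis list (median 0.16).

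The c-Myc lines were set against parental ESCs, with 1 parental pair. At adjusted p under 0.05, 26 of 13198 genes passed (0.197%), 7 with a more positive and 19 with a more negative change in the c-Myc lines, and 1498 had an unadjusted p under 0.05. This fit has 1 residual degree of freedom and takes the single parental pair to vary like the c-Myc pairs, so that the parental spread was not measured. Of the 26 genes, 23 had their largest change in parental ESCs and 9 moved in opposite directions. Fetub, a fetuin, read 4.89 and 5.06 at day 2 in wild-type c-Myc and T58A ESCs and 3.84 in parental, against 5.91, 6.17 and 7.21 untreated. Its change in the c-Myc lines was 2.30 ± 0.19 more positive (adjusted p = 0.0333). Adgrf5 (1.64), Adgrd1 (1.76), both adhesion receptors, P2rx7, an ATP-gated channel (1.80), and Plet1 (1.57) also had more positive changes in the c-Myc lines, and in all 5 the untreated parental level was the highest of the untreated ones. Over all genes tested, untreated parental ESCs lay outside both c-Myc lines in 83.4%.

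Cald1, an actin-binding protein, read 6.85 and 7.06 at day 2 in the c-Myc lines and 8.63 in parental ESCs, against 8.36, 8.55 and 8.49 untreated. It was thus lower than untreated in both c-Myc lines and near its untreated level in parental ESCs (difference -1.64 ± 0.19, adjusted p = 0.0414). Krt8, an epithelial keratin, and Samd4, an RNA-binding repressor, differed by -1.72 and -1.73, with lower day 2 levels in both c-Myc lines and higher ones in parental ESCs, each against untreated. Pttg1, the securin that holds sister chromatids, read 11.34 and 11.29 at day 2 in the c-Myc lines and 10.87 in parental ESCs, against 10.94, 11.01 and 8.73 untreated, so its difference of -1.80 went with a low untreated parental sample. Fndc3c1 rose by 1.48 and 1.09 in the c-Myc lines and by 3.67 in parental ESCs, from untreated levels below the level filter in every line. The count of 26 fell to 1 when arrays were centred on their median or at a stricter level filter, to 0 with the mean of probe sets or with day 5 samples in the fit, and was 105 with a trended robust prior.

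**Figure D5:**
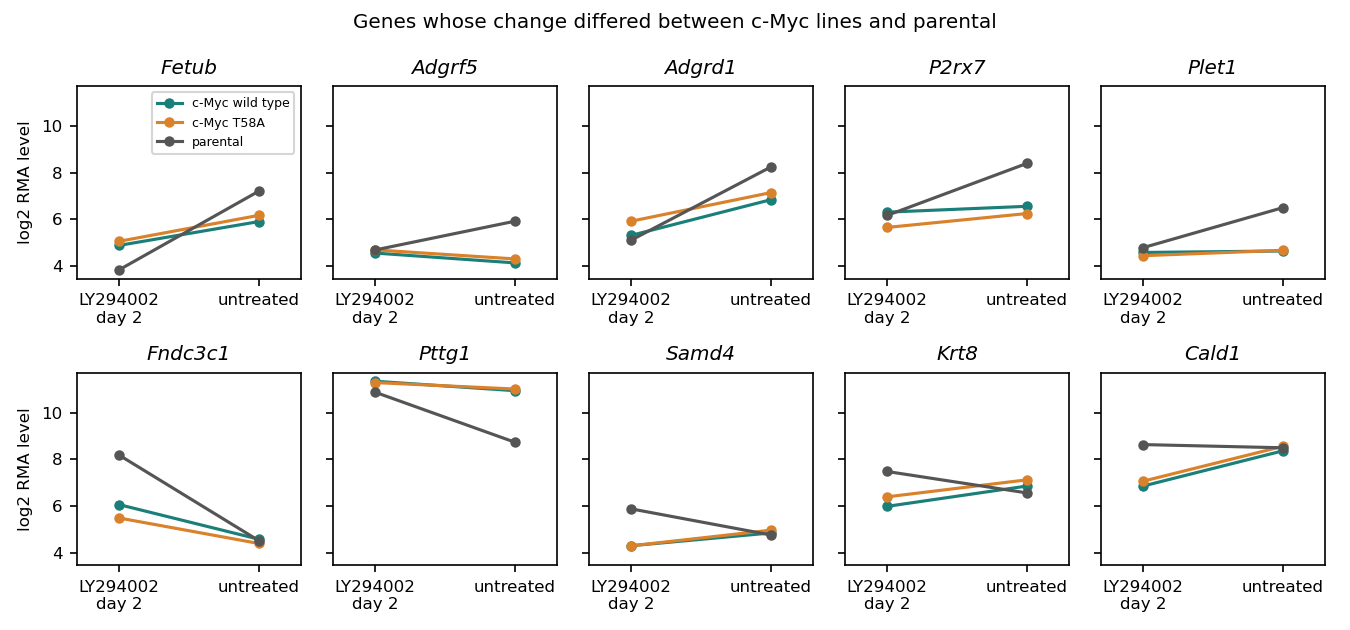
Levels of the 10 genes with the smallest p for the contrast of c-Myc lines with parental, 5 per direction, on the log2 RMA scale, LY294002 day 2 left and untreated right. The parental line (grey) has the steepest slope in most panels, and in the upper row its untreated level is the highest of the 3.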

How the data were processed

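RNA of mouse ESCs was extracted with TRIzol and hybridised as biotinylated cRNA to Affymetrix arrays, per the labels' protocols, with 1 array per sample. The deposited values are log2 levels, made by the authors with RMA (affy) per the submitters' processing notes. Its version and settings are not given in the sources used here. Of 45101 probe sets, 34945 named 1 gene. For each of 18193 genes the probe set brightest on average over the 18 arrays was used, and 9010 genes had several. Genes were tested where at least 2 of the 6 arrays lay above 4.64, the 40th percentile, which left 13198. A gene below this level in all samples of 1 group could thus enter the test through the other group.

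The day 2 change was tested with limma 3.58.1 (R 4.3.3; lmFit, eBayes), blocking on line, which left 2 residual degrees of freedom, and the difference of c-Myc lines from parental as a further term in the same model. All 13198 p-values (two-sided) were adjusted together by the Benjamini-Hochberg method, with a threshold of 0.05. They measure only the spread between these samples. The pairing comes from the lines and from descriptions that name the reference sample. Deviations from the group means of the 2 samples of a line correlated at 0.173 in wild-type c-Myc, 0.293 in T58A and 0.448 in parental ESCs. Precision is limited by the number of arrays.

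The genes named are the 15 largest rises and falls, the 4 smallest p-values of each list and members with a described role, the extremes of range over lines and of level, and the 5 smallest p-values in each direction of the line difference. Members and lists were chosen with earlier results of these data known. Gene lists are described by counts and medians without a test. Promoters are RefSeq windows of GRCm38.p6, from 250 bases before to 50 after the start, searched on both strands for 6 motifs, with overlaps between motifs kept. Alternatives changed the filter, scaling, probe set rule, prior, samples, block and threshold.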

Additional observations from a re-analysis of the deposited data

Results flagged for a closer look

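For the genes below, the day 2 change in the c-Myc lines against that in parental ESCs had an adjusted p under 0.05 in limma. The parental arm is 1 pair, taken to vary like the c-Myc pairs, and the count of 26 such genes was 0 or 1 under 4 of the other processing choices at this threshold. A positive difference means a more positive change in the c-Myc lines. Fetub differed by 2.30, with changes of -1.02 in wild-type c-Myc, -1.11 in T58A and -3.37 in parental ESCs. The receptors P2rx7, Adgrd1 and Adgrf5 differed by 1.80, 1.76 and 1.64, and Plet1 by 1.57. Inpp5d, the lipid phosphatase of the PI3K list, differed by 1.53 (adjusted p = 0.0424), with changes of -1.23, -1.07 and -2.68. In the other direction Fndc3c1 differed by -2.38, Pttg1 by -1.80, Samd4 by -1.73, Krt8 by -1.72 and Cald1 by -1.64. Untreated Fndc3c1 lay below the level filter in every line. Of the 26 genes, 19 had an untreated parental level outside both c-Myc lines, beside 83.4% of all genes tested.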

How the results depend on the processing

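Genes higher and lower at day 2 numbered 1814 and 1232. At adjusted p under 0.01 they were 488 and 340, and over the fits without 1 line's pair they ranged from 602 to 1568 and from 412 to 1190, lowest without wild-type c-Myc. With the line block removed they were 1216 and 883, and each other alternative left both counts within 1.5 times. The count of 26 for the difference between c-Myc lines and parental was 83 with no level filter, 1 with a filter at the 60th percentile, 1 with centred arrays and 45 after quantile normalization. It was 0 with the mean of probe sets, 105 with a trended robust prior, 0 with day 5 samples in the fit, 91 at adjusted p under 0.1 and 0 at adjusted p under 0.01. Leaving out a pair gave this difference no residual degrees of freedom or no parental sample, so it has no such value. Of the 162 named genes that changed at day 2, 156 kept their call with no level filter, 157 with centred arrays and 161 after quantile normalization. At the 60th percentile filter 152 were still tested, and all 152 kept their call. With the mean of probe sets 145 of 158 kept it, without the block 127 of 162, and without wild-type c-Myc 101 of 161. One turned: Wdr12 was -0.15 as the mean of its probe sets. The cause was not tested. With 3 pairs, small changes and differences between lines are the least certain.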

Other observations

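Of 18 cadherin and adhesion genes 5 rose, 2 fell and 11 did not pass (median 0.11). For this and the next lists, the shares over all genes tested were 13.7% higher and 9.33% lower. The cadherins Cdh1 and Cdh2 rose by 0.48 and 0.88, and Epcam, an epithelial adhesion protein, by 0.76, as did the tight junction genes Cldn6 and Cldn7 by 0.87 and 0.71. Zeb1, a repressor of Cdh1, fell by 0.73. Of 17 imprinted genes 3 rose and 5 fell, with Peg10 highest at 1.50 and Phlda2, a placental growth regulator, at -1.28. Germ cell genes moved both ways, with 5 of 19 tested higher and 3 lower. Mael, which acts in transposon silencing, rose by 1.72 and Dazl, an RNA-binding protein, by 0.80. Sycp3, of the meiotic chromosome axis, fell by 1.06. Of 9 interferon response genes tested 1 rose and 3 fell. B2m, the light chain of class I antigen presentation, fell by 1.56 and Bst2, an antiviral membrane protein, rose by 1.43. Slc40a1, the iron exporter, rose by 1.56.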
